A study of Mus musculus with 5 samples.

Results

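Interferon-stimulated genes are the genes that cells switch on when interferon, the alarm signal of antiviral defence, reaches them. The 48 genes described here were a given list of mouse gene symbols in this class, looked up by symbol among the 40879 symbols of each count file, and all 48 were present. The list was chosen with earlier results of these data known. They were set in 8 subgroups by role: 3 IFIT genes, 4 OAS genes, 6 guanylate-binding and immunity-related GTPases (GBP/IRG), 6 sensors of nucleic acid, 4 transcription factors (STAT/IRF), 8 genes of the ISG15, ubiquitin and PARP systems, 9 other antiviral effectors and 8 other interferon-induced genes. The cells were BV-2, 1 immortalised mouse microglial line. UPM cells were exposed to urban particulate matter at 50 µg/mL for 23 h with no trazodone. Trazodone (TZ), an antidepressant, was given at 1.25, 2.5 or 5 µg/mL for 1 h before the same exposure in the libraries called TZ 1.25, TZ 2.5 and TZ 5, and the control had neither agent. The labels do not say whether control cells received a vehicle. There was 1 library per group, so each comparison sets 1 library against another, intervals in parentheses are 95% intervals for counting error only, and no replicate check was possible.

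Type I interferons bind the receptor pair Ifnar1 and Ifnar2 on nearly every cell. The kinases Jak1 and Tyk2 then phosphorylate Stat2, which acts with Irf9 at the interferon-stimulated response element (ISRE) in the promoters of their targets, while interferon gamma acts at a different element, GAS. Microglia, the resident macrophages of the brain, express both pathways, and a basal level of these genes is found in macrophages without infection. Many of the products sense viral RNA or DNA, degrade it, block its translation or tag viral proteins.

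The promoters of 5 genes are shown because the comparisons below turn on them: Isg15 and Bst2 were called lower in UPM than in the control, and Ifit1, Ifit3 and Rsad2 share the same motif but had folds in different directions at the highest TZ dose. Each runs 5′ to 3′ on the strand of its gene over 300 bases, 250 before the gene start and 50 after it, from RefSeq on build GRCm38.p6, an earlier build than that of the counts. Isg15 is at chr4:156200769-156201068 (minus strand), Bst2 at chr8:71537423-71537722 (minus), Ifit1 at chr19:34640639-34640938 (plus), Ifit3 at chr19:34583279-34583578 (plus) and Rsad2 at chr12:26456403-26456702 (minus). Capitals mark matches to the ISRE core, read as GAAA, any 2 bases and GAAA on either strand, so that the other strand reads TTTC, any 2 bases and TTTC.
Isg15: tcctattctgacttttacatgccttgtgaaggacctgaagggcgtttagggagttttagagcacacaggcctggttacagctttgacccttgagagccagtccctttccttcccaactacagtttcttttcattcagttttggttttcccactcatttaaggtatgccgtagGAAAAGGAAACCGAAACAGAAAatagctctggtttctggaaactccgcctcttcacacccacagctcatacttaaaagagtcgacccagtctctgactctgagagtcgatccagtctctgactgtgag
Bst2: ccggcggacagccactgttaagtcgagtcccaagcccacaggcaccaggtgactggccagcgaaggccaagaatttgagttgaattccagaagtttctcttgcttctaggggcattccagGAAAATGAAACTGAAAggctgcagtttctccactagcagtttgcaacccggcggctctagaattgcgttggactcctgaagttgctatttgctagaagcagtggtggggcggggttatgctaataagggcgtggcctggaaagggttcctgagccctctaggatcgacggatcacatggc
Ifit1: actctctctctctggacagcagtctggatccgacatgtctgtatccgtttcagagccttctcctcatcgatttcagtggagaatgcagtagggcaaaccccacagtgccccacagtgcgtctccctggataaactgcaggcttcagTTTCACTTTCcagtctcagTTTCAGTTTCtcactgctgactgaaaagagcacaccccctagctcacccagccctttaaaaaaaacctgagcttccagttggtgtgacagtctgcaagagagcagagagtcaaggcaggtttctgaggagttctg
Ifit3: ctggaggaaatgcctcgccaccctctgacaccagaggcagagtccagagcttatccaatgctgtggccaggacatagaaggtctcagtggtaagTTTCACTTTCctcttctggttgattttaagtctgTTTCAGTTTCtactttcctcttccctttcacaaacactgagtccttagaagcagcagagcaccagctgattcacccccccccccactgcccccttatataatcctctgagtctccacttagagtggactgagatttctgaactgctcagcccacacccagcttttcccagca
Rsad2: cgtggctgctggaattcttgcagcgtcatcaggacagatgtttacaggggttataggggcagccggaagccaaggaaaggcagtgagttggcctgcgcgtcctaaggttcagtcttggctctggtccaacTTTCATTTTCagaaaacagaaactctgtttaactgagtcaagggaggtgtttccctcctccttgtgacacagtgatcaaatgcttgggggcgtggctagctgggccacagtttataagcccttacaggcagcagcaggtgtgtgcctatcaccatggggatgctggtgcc

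Isg15 held 3 overlapping ISRE matches, the first starting 78 bases before the gene start and the last ending 57 bases before it. Bst2 held 2 overlapping matches within 130 to 115 bases before its start, and a GAS match (TTCNNNGAA, either strand) that overlaps them. Ifit1 held 2 matches within 104 to 76 bases, Ifit3 held 2 within 156 to 113 bases, and Rsad2 held 1 at 120 to 111 bases before the start. A promoter was matched by symbol for 37 of the 48 members. The ISRE core was found in 17 of these 37 (45.9%), against 1079 of 27025 symbols in the whole table (3.99%), and the GAS letters in 9 of 37 (24.3%), against 9.55% of the table. A match describes letters in this window only. Oas2, Dhx58, Ifi27l2a, Ifi204, Usp18, Parp9, Parp14, Zbp1, Rtp4, Mx1 and Mx2 have no sequence here.

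The libraries held 7696168 counts in UPM, 7251071 in TZ 1.25, 6829720 in TZ 2.5, 6855817 in TZ 5 and 7582187 in the control. Levels are CPM (the count over the library total, times 1e+06) scaled by TMM factors of 0.991 to 1.01, from reads of the 3′ end of each transcript with no division by length. A count of 0 allows up to 3 counts, or 0.390 to 0.439 CPM. The microglial and macrophage markers all had counts in every library, 12 of 12, with a summed level of 5631 to 6029.5 CPM, although P2ry12, a marker of homeostatic microglia, had 5 to 11 counts. Among them Spi1, the macrophage factor PU.1, was called lower in UPM (666 CPM) and in TZ 5 (623 CPM) than in the control (1017 CPM), and Cx3cr1, the fractalkine receptor, lower in TZ 5 (10.2 CPM) than in UPM (16.6 CPM). In each pair that was 1 of 11 measured markers (9.09%), against 3.08%, 6.06% and 6.57% of all genes in the same order. Aif1, which encodes the microglial protein IBA1, was at 237 CPM in UPM, 238, 289 and 319 CPM in TZ 1.25, TZ 2.5 and TZ 5, and 245 CPM in the control. Aif1 was the 1 marker of the 12 called by the dose term of the fit (8.33%, against 5.44% of all genes). Summed levels were 0.133 to 1.74 CPM for astrocyte markers with Aqp4 at 0, 0.799 to 1.80 CPM for neuronal markers, and 3.03 to 5.62 CPM for T cell markers with Cd3e at 0. Oligodendrocyte markers summed to 15.4 to 24.8 CPM, mostly Cnp, with Mog at 0 and Cnp at 20.9 CPM in TZ 2.5, against 12.4 CPM in UPM, and plasmacytoid dendritic cell markers to 191 to 211 CPM, almost all from Tcf4 and the member Bst2, with Siglech at 0. The part of these markers in the results was not tested. The share of mitochondrial ribosomal RNA was 8.80% in UPM, 8.64% in TZ 1.25, 7.0% in TZ 2.5, 7.06% in TZ 5 and 7.94% in the control, and small nucleolar RNA 0.152%, 0.142%, 0.0973%, 0.0704% and 0.125% in the same order. With these RNAs and histone genes left out, every call of a member between 2 libraries was as before.

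The 48 genes took 0.259% of counts in UPM, 0.230% in TZ 1.25, 0.228% in TZ 2.5, 0.235% in TZ 5 and 0.268% in the control. Their summed level was 2609 CPM in UPM, 2314 CPM in TZ 1.25, 2246 CPM in TZ 2.5 and 2339.8 CPM in TZ 5, against 2700.0 CPM in the control. A mean of at least 10 CPM was reached by 41 members, and over these the highest library had a median of 1.41 times the lowest, against 1.29 times over all 8341 genes at that level. Their median level was 33.0 CPM, against 45.2 CPM over those genes, so that counting error is somewhat larger in the members. The control was the highest library for 16 of the 41 members (39.0%, against 21.8% of all genes) and the lowest for 0 (20.0% of all genes). TZ 2.5 was the highest for 0 (14.9% of all genes) and the lowest for 13 (31.7%, against 16.5%). TZ 1.25 was the highest for 3 (7.32%, against 14.2%) and the lowest for 14 (34.1%, against 16.8%). UPM was the highest for 13 (31.7%, against 23.4%) and the lowest for 4 (9.76%, against 23.3%). TZ 5 was near all genes, the highest for 9 (22.0%, against 25.6%) and the lowest for 10 (24.4%, against 23.3%). In bulk RNA, fewer cells with a transcript and less of it per cell cannot be told apart.

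**Figure D1:**
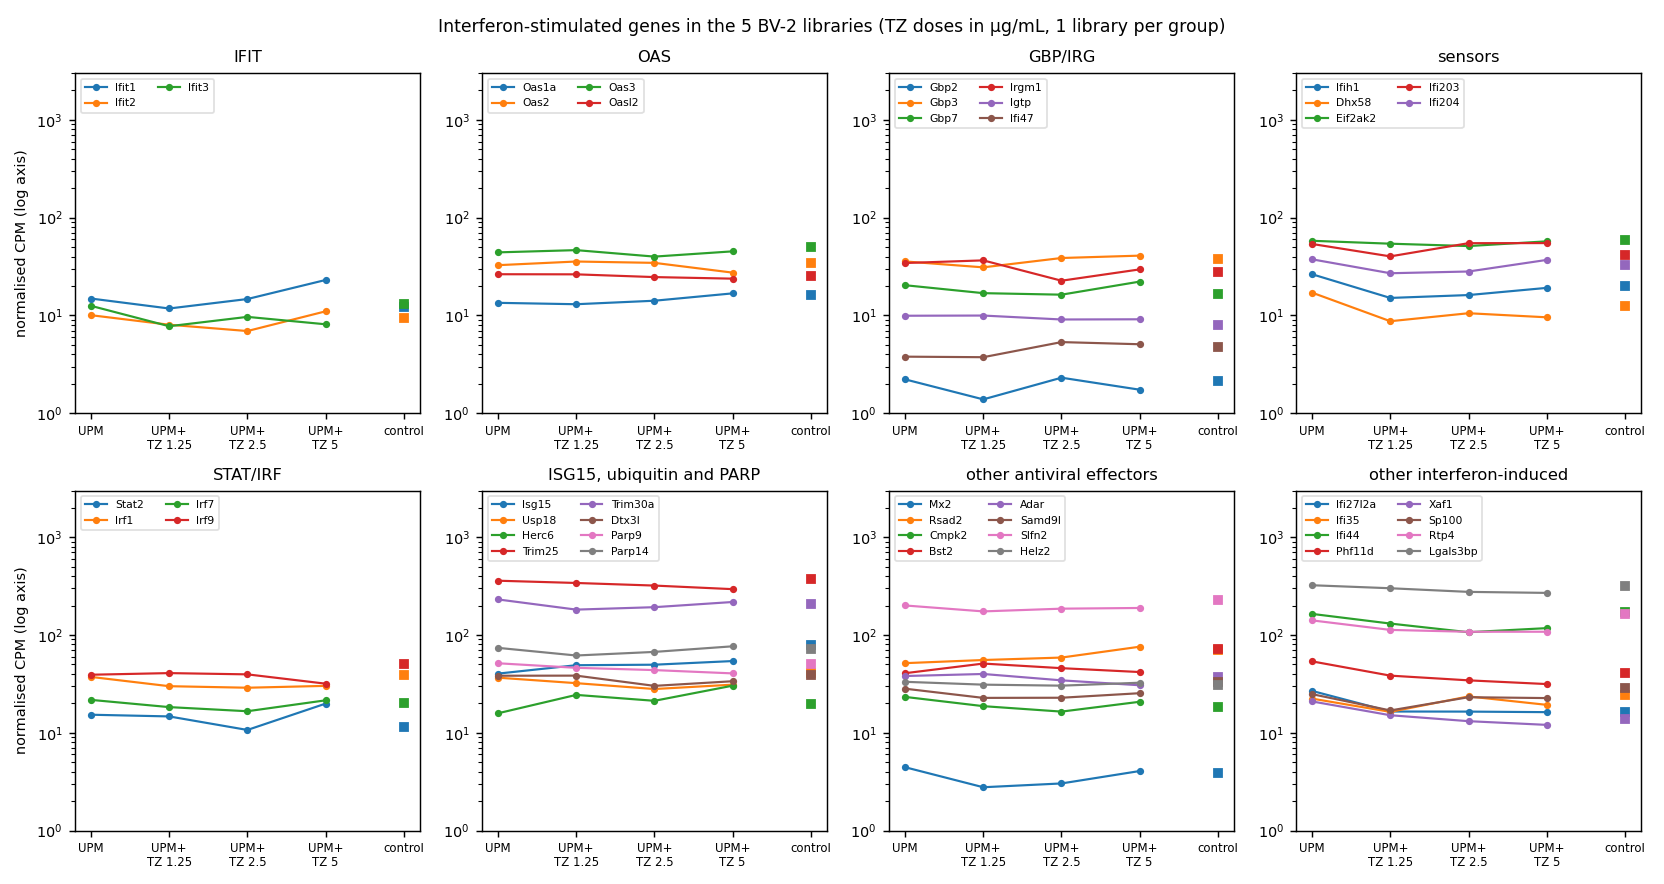
Normalised CPM (log axis) of 46 of the 48 genes by subgroup, with lines joining UPM and the 3 TZ doses (µg/mL) and squares for the control. Zbp1 and Mx1, with 0 counts in some libraries, are not drawn, and most genes lie between 10 and 100 CPM with small steps between libraries.

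**Figure D2:**
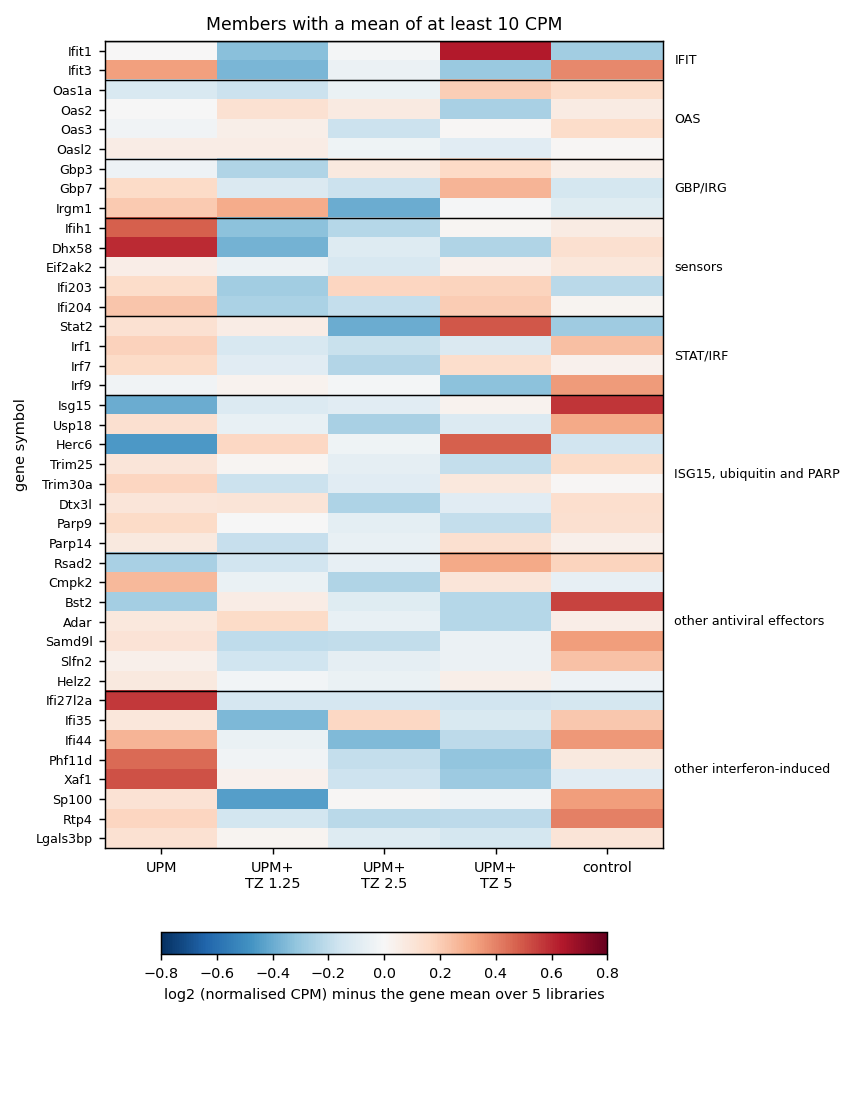
Each of the 41 members with a mean of at least 10 CPM in each library, as log2 normalised CPM minus the gene's mean over the 5 libraries. Isg15 and Bst2 are highest in the control, Ifi27l2a, Dhx58, Xaf1 and Phf11d in UPM, and Ifit1 and Stat2 in TZ 5.

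The comparison of UPM with the control asks how microglial cells respond to the particles. A gene was called when it reached a fold of 1.5 up or down, with a counting interval that excluded 1, and the mean of the pair was at least 10 CPM, which is a rule of size and not a test of conditions. Of 41 members measured in this pair, 2 were called higher (Ifi27l2a and Xaf1) and 2 lower (Isg15 and Bst2), against 1.67% of all 8282 genes higher, 1.41% lower and 3.08% either way. Their median log2 fold was −0.04, against −0.00 over all genes, and 21 members (51.2%) were below 0, against 50.9%. The median and the share below 0 were therefore close to those of all genes in this pair. Single members stood apart in both directions, and 9.76% of members were called, against 3.08% of all genes.

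TZ against UPM asks whether the drug modulates the response to the particles. At TZ 1.25, 1 of 41 measured members was called higher (Herc6) and 4 lower (Dhx58, Ifih1, Ifi27l2a and Ifit3), against 1.19% of all genes higher, 1.03% lower and 2.22% either way. At TZ 2.5, 0 of 41 were called higher and 7 lower (Ifih1, Ifi27l2a, Dhx58, Xaf1, Phf11d, Ifi44 and Irgm1), against 2.67% higher, 1.73% lower and 4.4% either way. At TZ 5, 2 of 42 were called higher (Herc6 and Ifit1) and 5 lower (Dhx58, Xaf1, Phf11d, Ifi27l2a and Ifit3), against 3.78% higher, 2.8% lower and 6.57% either way. The members' median log2 fold was −0.20 at TZ 1.25, −0.23 at TZ 2.5 and −0.15 at TZ 5, against −0.00, −0.01 and 0.00 over all genes. At TZ 1.25 and at TZ 2.5, 31 of 41 members (75.6%) were below UPM, against 50.8% of all genes at each dose, and at TZ 5, 29 of 42 (69.0%), against 49.3%. These comparisons share the UPM library, so a gene high in that 1 library is low in all of them. Dhx58 and Ifit3 were under 10 CPM in TZ 1.25 and TZ 5, so their calls at these doses passed the minimum only through the level of UPM.

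Against the control, TZ 1.25 had 0 of 41 members called higher and 3 lower (Sp100, Ifit3 and Isg15), with 1.56% of all genes higher, 0.821% lower and 2.38% either way. TZ 2.5 had 0 of 41 higher and 4 lower (Ifi44, Isg15, Bst2 and Rtp4), with 2.21% of all genes higher, 1.41% lower and 3.62% either way. TZ 5 had 3 of 42 higher (Ifit1, Stat2 and Herc6) and 4 lower (Bst2, Ifit3, Irf9 and Rtp4), with 3.55% of all genes higher, 2.51% lower and 6.06% either way. The median log2 fold of the members was −0.14 at TZ 1.25, −0.22 at TZ 2.5 and −0.17 at TZ 5, against −0.015, −0.011 and 0.005 over all genes. Below the control were 30 of 41 members (73.2%, against 53.5% of all genes) at TZ 1.25 and 35 of 41 (85.4%, against 52.0%) at TZ 2.5. At TZ 5 it was 26 of 42 (61.9%, against 49.3%). These comparisons share the control library. The calls of Ifit3 passed the minimum of 10 CPM only through the level of the control.

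**Figure D3:**
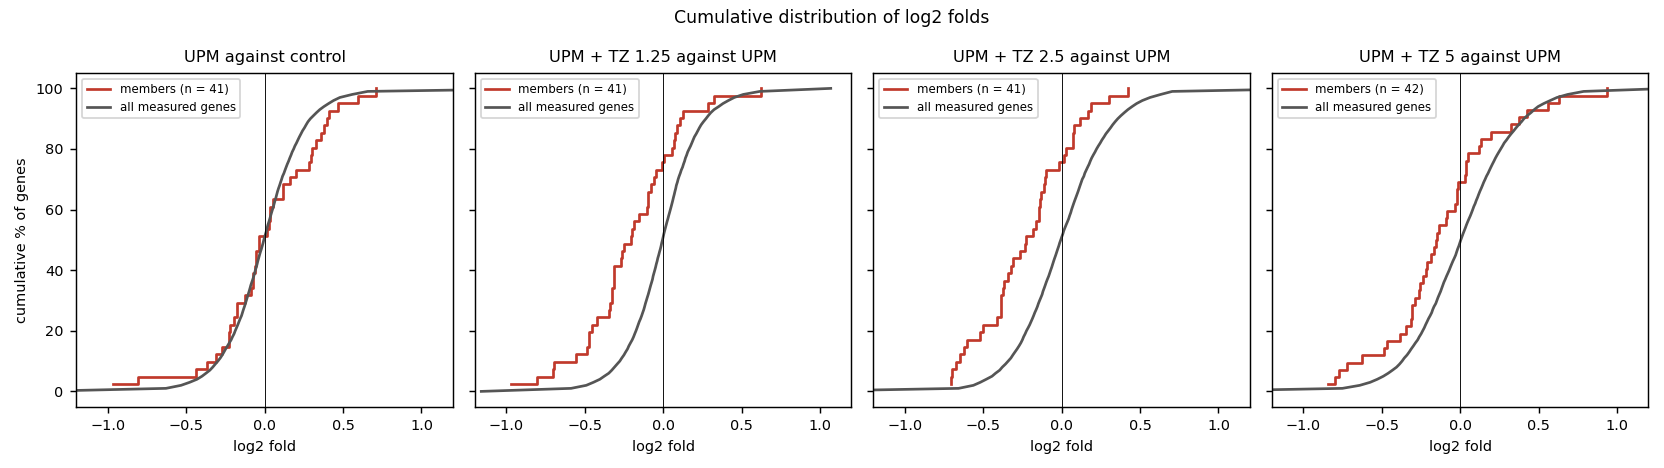
Cumulative percentage of genes (y axis) by log2 fold between 2 libraries (x axis) for the members and for all genes with a mean of at least 10 CPM. For UPM against the control the curves cross near 0, and for each TZ dose against UPM the members' curve lies to the left over most of its range.

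**Figure D4:**
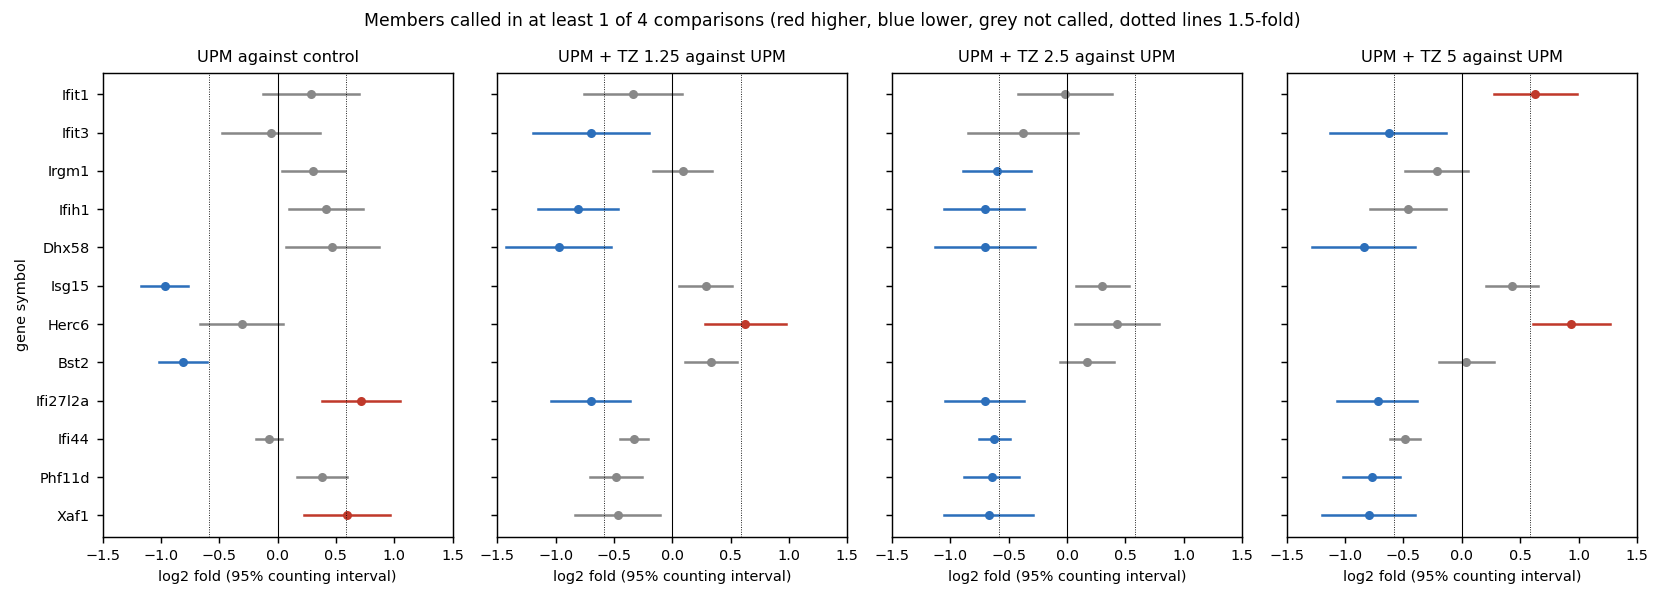
Log2 folds with 95% counting intervals for the 12 members called in at least 1 of these 4 comparisons, red for higher, blue for lower, grey for not called, and dotted lines at 1.5-fold. Dhx58 and Ifi27l2a lie left of the lower line at all 3 TZ doses, and Herc6 lies right of the upper line at TZ 1.25 and TZ 5.

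Of the ligands, 10 interferon genes were looked up, and 1 count of Ifnb1 in the control was all that was found, so their messages were not detectable at this depth. The receptors and JAK-STAT genes, a list of 15 that shares no gene with the 48, had 13 measured. In this list 1 was called higher and 0 lower in UPM against the control, 0 were called at TZ 1.25 or TZ 2.5 against UPM, and 0 were called higher and 2 lower at TZ 5 against UPM. The shares of all genes called either way in these pairs were 3.08%, 2.22%, 4.4% and 6.57%. The called gene in UPM was Ifnar1, the type I interferon receptor chain, at 21.3 CPM in UPM, against 13.0 CPM in the control (1.63-fold, 1.26 to 2.12). It was at 19.3, 15.9 and 11.3 CPM in TZ 1.25, TZ 2.5 and TZ 5, and TZ 5 was 0.531-fold of UPM (0.400 to 0.700). Stat3, which carries interleukin signals and interferon signals, was at 203 CPM in UPM, 172, 151 and 129 CPM in TZ 1.25, TZ 2.5 and TZ 5, and 173 CPM in the control, and TZ 5 was 0.637-fold of UPM (0.586 to 0.693). The genes of the list with the most counts were Ptpn6, a phosphatase that damps JAK signals, at 334 to 421 CPM, Jak1 at 187 to 248 CPM and Ifnar2 at 185 to 234 CPM, each lowest in TZ 5.

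Of 18 genes on the routes that lead to interferon, 16 were measured. Against UPM, 0 were called at TZ 1.25, 1 at TZ 2.5 (6.25%) and 2 at TZ 5 (12.5%). The shares of all genes called were 2.22%, 4.4% and 6.57%, so a list of this size is near them. Ikbke, a kinase that activates Irf3 and Irf7, was called higher at TZ 2.5 and at TZ 5, with 13.3 CPM in UPM, 15.8, 21.2 and 21.2 CPM in TZ 1.25, TZ 2.5 and TZ 5, and 12.9 CPM in the control. Its fold over UPM was 1.59 (1.23 to 2.07) at both doses. Sting1, the adaptor of cytosolic DNA sensing, was at 14.1 CPM in UPM, 20.6, 20.8 and 22.6 CPM in the rising doses and 15.3 CPM in the control, and TZ 5 was 1.60-fold of UPM (1.25 to 2.07). The genes with the most counts were Unc93b1, which carries Toll-like receptors to endosomes, at 128 to 183 CPM, the DNA sensor Cgas at 108 to 131 CPM and Irf5 at 83.0 to 98.0 CPM. The median log2 fold of this list was 0.07, 0.09 and 0.11 at TZ 1.25, TZ 2.5 and TZ 5 against UPM.

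The STAT/IRF members are the factors that turn interferon signals into transcription. Irf9, which binds DNA together with Stat2, was at 39.2 CPM in UPM, 40.7, 39.6 and 31.8 CPM in TZ 1.25, TZ 2.5 and TZ 5, and 50.4 CPM in the control. The TZ 5 library was the lowest and the control the highest, and TZ 5 was 0.630-fold of the control (0.531 to 0.746). Stat2, its partner, was at 15.3 CPM in UPM, 14.7, 10.7 and 19.9 CPM in the rising TZ doses, and 11.6 CPM in the control. Here TZ 5 was the highest library, at 1.72-fold of the control (1.30 to 2.27), and TZ 2.5 the lowest, so that the 2 partners differed in which libraries were high. Irf1 and Irf7, an early interferon factor and an amplifier of the interferon response, ran from 28.9 to 38.6 CPM and from 16.6 to 21.7 CPM and were not called in any comparison. Irf9 overlaps Rnf31 on the same strand in GENCODE for GRCm38, which leaves its counts less certain.

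The sensors had summed levels of 193 CPM in UPM, 145 CPM in TZ 1.25, 161 CPM in TZ 2.5 and 178 CPM in TZ 5, against 166 CPM in the control. All 5 measured sensors were below UPM at TZ 1.25 with a median log2 fold of −0.47, and 4 of 5 at TZ 2.5 (−0.41) and at TZ 5 (−0.02), against 50.8%, 50.8% and 49.3% of all genes below UPM at the rising doses. Dhx58, which encodes LGP2, a regulator of RIG-I and MDA5, was at 17.1 CPM in UPM, 8.73, 10.5 and 9.57 CPM in TZ 1.25, TZ 2.5 and TZ 5, and 12.4 CPM in the control. UPM was the highest library and all 3 TZ libraries were below the control. Its folds of UPM were 0.510 (0.371 to 0.694), 0.616 (0.456 to 0.826) and 0.559 (0.409 to 0.757) at the rising doses, and it overlaps Dhx58os on the opposite strand. Dhx58 was under 10 CPM in TZ 1.25 and TZ 5, so those pairs with UPM were measured only through the level of UPM. Ifih1, which encodes MDA5, a sensor of long double-stranded RNA, was at 26.4 CPM in UPM, 15.1, 16.2 and 19.1 CPM in TZ 1.25, TZ 2.5 and TZ 5, and 19.8 CPM in the control. UPM was again the highest library and TZ 5 lay close to the control, and the folds of UPM that were called were 0.572 (0.449 to 0.726) at TZ 1.25 and 0.612 (0.482 to 0.775) at TZ 2.5. Eif2ak2, the kinase PKR that stops translation when it binds double-stranded RNA, had the most counts of the group at 51.2 to 59.5 CPM and was not called. Ifi203 and Ifi204, of a family of DNA-binding proteins whose similar copies can share reads, ran from 40.2 to 55.0 CPM and from 27.0 to 37.5 CPM and were not called. Zbp1, a sensor of Z-form nucleic acid, had 2 counts in TZ 5 and 0 in the others, too few for a fold.

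The IFIT proteins bind viral RNA and stop its translation. Ifit1 was at 14.9 CPM in UPM, 11.8, 14.7 and 23.1 CPM in TZ 1.25, TZ 2.5 and TZ 5, and 12.2 CPM in the control. The TZ 5 library stood above the other 4, at 1.55-fold of UPM (1.21 to 1.99) and 1.88-fold of the control (1.45 to 2.46). Ifit3, which in human cells binds and steadies IFIT1, was at 12.5 CPM in UPM, 7.76, 9.67 and 8.12 CPM in TZ 1.25, TZ 2.5 and TZ 5, and 13.0 CPM in the control. All 3 TZ libraries were below UPM and the control, with called folds of UPM of 0.619 (0.437 to 0.869) at TZ 1.25 and 0.647 (0.457 to 0.909) at TZ 5. Each TZ library was under 10 CPM, so these pairs were measured only through the level of UPM or the control. The means of the 2 called pairs with UPM were 10.2 and 10.3 CPM, close to the limit. Ifit1 and Ifit3 therefore lay on opposite sides of UPM at TZ 5, and both promoters hold 2 ISRE matches. Reads of Ifit3 can be shared with its near-identical copy Ifit3b. Ifit2 was measured only at TZ 5, at 11.0 CPM, against 10.1 CPM in UPM, and was not called.

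The OAS enzymes make oligoadenylates that switch on an RNase when they meet double-stranded RNA. Of their 4 genes, 0 were called in any of the 7 comparisons. The medians at TZ 1.25, TZ 2.5 and TZ 5 against UPM were 0.04, −0.01 and −0.06 on the log2 scale, the closest to 0 of the subgroups at TZ 1.25 and TZ 2.5. Oas3 had the most counts, at 44.2 CPM in UPM, 46.6, 40.0 and 45.3 CPM in the rising doses and 49.8 CPM in the control. Oas1a, Oas2 and Oasl2 ran from 13.03 to 35.6 CPM.

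The GBP/IRG proteins are GTPases that attack the vacuoles of intracellular microbes and answer interferon gamma most strongly. Only 3 of the 6 had a mean of at least 10 CPM, while Gbp2, Igtp and Ifi47 ran from 1.39 to 9.98 CPM. Irgm1, a regulator of the other immunity-related GTPases, was at 34.4 CPM in UPM, 36.6, 22.7 and 29.6 CPM in TZ 1.25, TZ 2.5 and TZ 5, and 27.8 CPM in the control. TZ 2.5 was the lowest library, at 0.659-fold of UPM (0.538 to 0.807), while TZ 1.25 was the highest. Gbp3 had the most counts, at 35.7 CPM in UPM, 31.0, 38.7 and 40.9 CPM in the rising doses and 37.9 CPM in the control, and was not called, nor was Gbp7 at 16.3 to 22.2 CPM.

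Isg15 is a small ubiquitin-like protein that is attached to other proteins and is among the most strongly induced genes after interferon. It was at 40.3 CPM in UPM, 49.1, 49.7 and 54.1 CPM in TZ 1.25, TZ 2.5 and TZ 5, and 78.7 CPM in the control. The control stood above all 4 UPM libraries, and UPM alone was the lowest. UPM was 0.512-fold of the control (0.444 to 0.588), TZ 1.25 was 0.624-fold (0.545 to 0.713) and TZ 2.5 was 0.631-fold (0.551 to 0.722). Herc6, the ligase that attaches Isg15 in the mouse, was at 15.8 CPM in UPM, 24.4, 21.2 and 30.3 CPM in TZ 1.25, TZ 2.5 and TZ 5, and 19.6 CPM in the control. UPM was the lowest library here too, and Herc6 was 1.54-fold of UPM (1.22 to 1.96) at TZ 1.25, 1.92-fold (1.53 to 2.42) at TZ 5 and 1.55-fold of the control (1.25 to 1.93) at TZ 5. It overlaps a predicted gene on each strand, which leaves its counts less certain. Usp18, which removes Isg15, at 28.0 to 41.3 CPM, Trim30a at 182 to 231 CPM and the adjacent genes Parp14, Dtx3l and Parp9 were not called, and Trim25, a ubiquitin ligase of the RIG-I route with the most counts of the subgroup, was at 359 CPM in UPM, 340.2, 320.0 and 294 CPM in the rising doses and 374 CPM in the control.

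Among the other antiviral effectors, Bst2, or tetherin, which holds budding virus at the cell surface, was at 40.6 CPM in UPM, 51.0, 45.8 and 41.8 CPM in TZ 1.25, TZ 2.5 and TZ 5, and 71.2 CPM in the control. As with Isg15, the control stood above the 4 UPM libraries. UPM was 0.571-fold of the control (0.495 to 0.658), TZ 2.5 was 0.643-fold (0.557 to 0.740) and TZ 5 was 0.587-fold (0.507 to 0.678). Rsad2, or viperin, which makes a chain-terminating nucleotide, was at 51.5 CPM in UPM, 55.4, 58.8 and 75.9 CPM in TZ 1.25, TZ 2.5 and TZ 5, and 69.7 CPM in the control. The values stood in the order of dose, with TZ 5 near the control, and no pair reached 1.5-fold. Slfn2, a Schlafen gene with the most counts of the subgroup, was at 200.3 CPM in UPM, 174, 186 and 189 CPM in the rising doses and 229 CPM in the control. Mx1 had 3 counts in UPM, 2 in TZ 5 and 0 in the others, and Mx2 had 20 to 34 counts, so neither was measured. RefSeq lists both as transcribed pseudogenes. Cmpk2, Adar, Samd9l and Helz2, among them Adar, which edits double-stranded RNA, ran from 16.5 to 39.9 CPM and were not called.

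The 8 other interferon-induced genes had summed levels of 776 CPM in UPM, 647 CPM in TZ 1.25, 601 CPM in TZ 2.5 and 596 CPM in TZ 5, against 781 CPM in the control. All 8 were below UPM at TZ 1.25 (median log2 fold −0.46, 1 called), 7 of 8 at TZ 2.5 (−0.50, 4 called) and all 8 at TZ 5 (−0.43, 3 called). Of all genes, 50.8%, 50.8% and 49.3% were below UPM at the rising doses, and 2.22%, 4.4% and 6.57% were called. Ifi27l2a, of the Ifi27 family of small membrane proteins, was at 26.8 CPM in UPM, 16.5, 16.5 and 16.2 CPM in TZ 1.25, TZ 2.5 and TZ 5, and 16.4 CPM in the control. UPM alone was high, and the other 4 libraries lay between 16.2 and 16.5 CPM. UPM was 1.64-fold of the control (1.30 to 2.06), and the TZ libraries were 0.616-fold (0.487 to 0.775), 0.614-fold (0.484 to 0.776) and 0.606-fold (0.477 to 0.767) of UPM. Xaf1, which binds the apoptosis inhibitor XIAP, was at 20.9 CPM in UPM, 15.1, 13.1 and 12.04 CPM in TZ 1.25, TZ 2.5 and TZ 5, and 13.8 CPM in the control. UPM was again the highest, at 1.51-fold of the control (1.17 to 1.95), and the called folds of UPM were 0.628 (0.480 to 0.818) at TZ 2.5 and 0.576 (0.436 to 0.755) at TZ 5.

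Phf11d, of a family of PHD finger genes with near-identical copies, was at 53.7 CPM in UPM, 38.4, 34.4 and 31.5 CPM in TZ 1.25, TZ 2.5 and TZ 5, and 41.3 CPM in the control. Its order over the doses was downward and all 3 TZ libraries were below the control, with called folds of UPM of 0.640 (0.543 to 0.752) at TZ 2.5 and 0.586 (0.495 to 0.692) at TZ 5. Ifi44, an interferon-induced cytoplasmic protein, was at 164 CPM in UPM, 131, 107 and 117 CPM in TZ 1.25, TZ 2.5 and TZ 5, and 173 CPM in the control. All TZ libraries were below both others, and TZ 2.5 was 0.649-fold of UPM (0.592 to 0.712) and 0.618-fold of the control (0.564 to 0.677). Rtp4, a transporter chaperone that dampens interferon signalling, was at 141 CPM in UPM, 113, 108 and 108 CPM in the rising doses and 165 CPM in the control, and TZ 2.5 (0.596 to 0.717) and TZ 5 (0.597 to 0.717) were each 0.654-fold of the control. It overlaps Masp1 on the opposite strand and a predicted gene on its own strand. Sp100, a protein of nuclear bodies, was at 24.8 CPM in UPM, 16.9, 23.1 and 22.6 CPM in the rising doses and 28.9 CPM in the control, with TZ 1.25 the lowest at 0.585-fold of the control (0.465 to 0.734). Lgals3bp, a secreted ligand of galectins, had the most counts of the subgroup, at 323 CPM in UPM, 300.5 CPM in TZ 1.25, 276 CPM in TZ 2.5, 269 CPM in TZ 5 and 319 CPM in the control, and was not called, nor was Ifi35 at 16.4 to 24.4 CPM.

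Tests came from fits of all 5 libraries, first with a UPM term and a linear term for TZ dose. This fit had 2 residual degrees of freedom beside 48.7 borrowed across genes, so its p-values rest mostly on spread shared by all genes. It fits the lone control exactly, on the assumption that the control varies as the others do. Counts of UPM libraries below the control, given here, all share that 1 control, so a high value in it alone puts every UPM library below it. Of 46 members tested, the UPM term called 0 higher and 1 lower, against 10 of all 12381 genes higher (0.0808%), 4 lower (0.0323%) and 0.113% either way. Isg15 fell with UPM, by 0.87 on the log2 scale (SE 0.15, edgeR quasi-likelihood test, Benjamini-Hochberg adjusted p = 0.00192), and was lower in 4 of 4 UPM libraries. Over the alternatives its adjusted p ran from 3.8e-05 to 0.659 (edgeR and DESeq2), and only the fit with no dose term lost the call. Bst2 was also lower in 4 of 4 libraries but did not pass, with a log2 estimate of −0.64 (SE 0.16, edgeR quasi-likelihood test, adjusted p = 0.0704), although it passed with no filter on low counts, without TZ 1.25 and without TZ 5. An unadjusted p under 0.05 was found for 5 members, each lower with UPM, and for 7.79% of all genes.

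**Figure D5:**
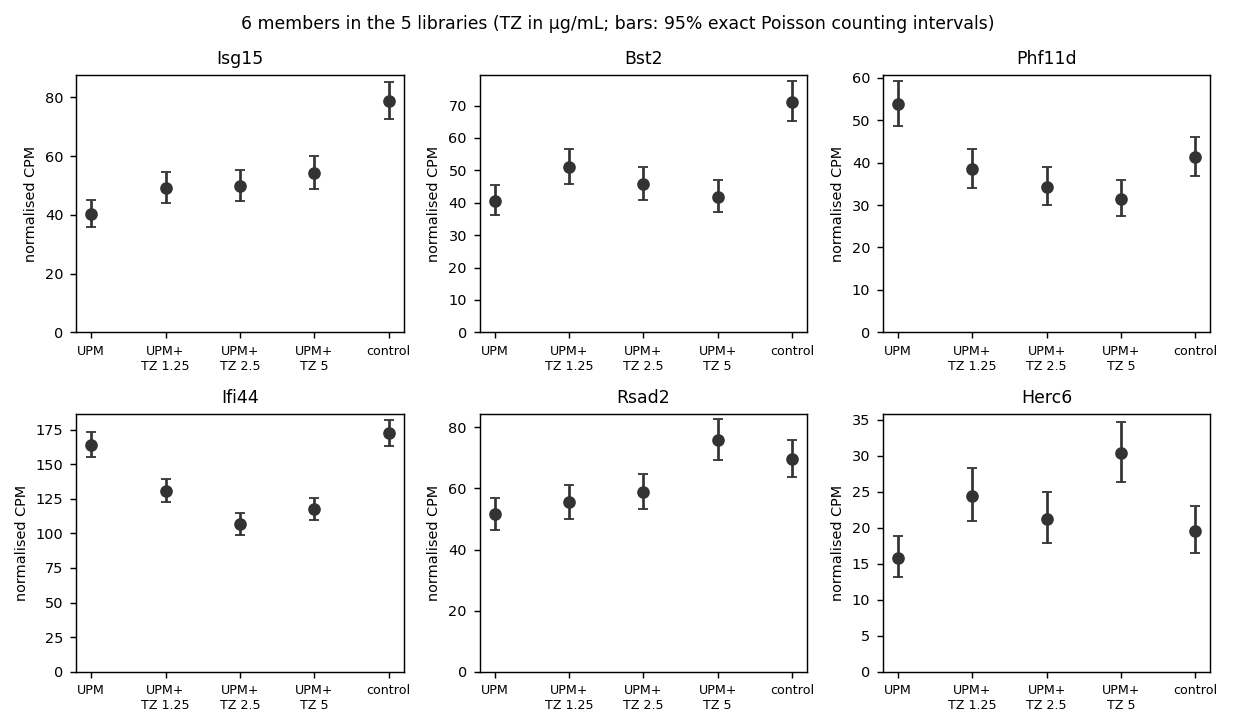
Normalised CPM of 6 members in each library with 95% exact Poisson counting intervals: Isg15 and Bst2, with the smallest p in the UPM term, and the 4 members called in the TZ dose term. Isg15 and Bst2 are highest in the control, Phf11d is highest in UPM, and Rsad2 and Herc6 are highest in TZ 5.

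The dose term called 2 of the 46 members higher and 2 lower, against 2.95% of all genes higher, 2.5% lower and 5.44% either way, so the members' share was near that of all genes. Per µg/mL of TZ, Phf11d fell by 0.15 on the log2 scale (SE 0.04, edgeR quasi-likelihood test, adjusted p = 0.0109) and was below UPM in 3 of 3 TZ libraries. Ifi44 fell by 0.09 (SE 0.03, edgeR quasi-likelihood test, adjusted p = 0.0270), likewise in 3 of 3. Rsad2 rose by 0.11 (SE 0.03, edgeR quasi-likelihood test, adjusted p = 0.0182) and Herc6 rose by 0.16 (SE 0.05, adjusted p = 0.0309), both above UPM in 3 of 3. An unadjusted p under 0.05 was found for 4 members higher with dose and 8 lower, 12 of 46 in all, and for 17.6% of all genes. The DESeq2 Wald test called 0 members, with 5 at an unadjusted p under 0.05 and no adjusted p for 32. Without the UPM library all 4 lost the call and Ifit1 alone passed. Without TZ 5, Herc6 and Rsad2 lost it, and without TZ 2.5, Herc6 did. The counts of 3 of 3 TZ libraries above or below UPM all share the same UPM library, so they are not separate checks.

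In a second fit, with TZ coded as given or not and 15.2 degrees of freedom borrowed across genes, 0 of 46 members were called by edgeR's quasi-likelihood test and 0 by DESeq2, with 10 and 7 at an unadjusted p under 0.05, against 10.8% of all genes in edgeR. Of all genes 0 (0%) were called higher and 1 lower (0.00808%). The median log2 estimate of the members was −0.18, against 0.01 over all genes, and 38 of 46 were negative, against 47.8% of all genes. The TZ term here sets the TZ libraries against the lone UPM library and assumes that UPM varies as they do. A gene high in UPM alone therefore gives a negative estimate. Without TZ 1.25, the median log2 estimate of the members in this fit was −0.15, against 0.01 over all genes. The result of 0 called members in edgeR did not hold without that library.

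In the JAK-STAT list the dose term called 1 of 14 tested genes higher, Pias1, an inhibitor of activated STATs (0.10 per µg/mL, SE 0.03, edgeR quasi-likelihood test, adjusted p = 0.0491), and 3 lower, 28.6% of the list against 5.44% of all genes. The genes called lower were Stat3, which fell by 0.13 (SE 0.02, edgeR adjusted p = 0.000432), Jak1, which fell by 0.08 (SE 0.02, edgeR adjusted p = 0.0226), and Ifnar1, which fell by 0.19 (SE 0.05, edgeR adjusted p = 0.0263). Pias1 was at 50.2 CPM in UPM, 52.2, 62.1 and 69.6 CPM in the rising doses and 57.1 CPM in the control. Calls were followed over the alternative settings for the members only. How far the calls of genes in the other lists depend on the setting was not tested. Of 17 tested genes on the routes to interferon, 0 rose and 1 fell, Unc93b1, by 0.10 (SE 0.03, edgeR adjusted p = 0.0120), which is 5.88% of the list and near the 5.44% of all genes.

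Members with an ISRE match and those without it were set side by side by their medians. At TZ 5 against UPM the 15 measured members with a match had a median log2 fold of 0.04, and the 19 without one had −0.19. At TZ 2.5 the medians were −0.14 and −0.20, at TZ 1.25 −0.10 and −0.22, and in UPM against the control −0.04 and −0.04. Against the control the medians with and without a match were −0.18 and −0.12 at TZ 1.25, −0.22 and −0.24 at TZ 2.5, and 0.08 and −0.28 at TZ 5, so the order of the 2 sets was not the same in all comparisons. Of the members called against UPM, Phf11d, Ifi44, Xaf1 and Herc6 hold no match in their window. Ifih1, Irgm1, Ifit1 and Ifit3 do hold a match, and Dhx58 and Ifi27l2a have no sequence here and are in neither set.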

How the data were processed

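For 5 BV-2 libraries, messenger RNA was sequenced from the 3′ end (QuantSeq, oligo-dT primed total RNA, single-end reads of 75 bp), per the labels' protocols. Each library has 1 deposited file of whole-number read counts by gene symbol, not normalized. STAR, edgeR and build GRCm39 are named in the submitters' processing notes, without versions. No source used here gives the counting program, annotation or strand handling, so overlapping genes and paralogs are less certain: in GENCODE for GRCm38, 17 of the 48 members overlap a gene on the opposite strand and 9 on the same strand.

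The members, the lists and the TZ presence term were chosen with earlier results of these data known. Values in every library are given for members called in any of the 7 comparisons or 3 model terms and for the member with the most counts in each subgroup. Of the other pathway lists, called genes and the 3 with the most counts are named. Folds are ratios of TMM-scaled CPM with 95% Clopper-Pearson intervals, and called genes need 1.5-fold, an interval without 1 and a mean of 10 CPM. Models were fitted in edgeR 4.0.16 (limma 3.58.1, R 4.3.3) with the quasi-likelihood test after filterByExpr (12381 genes), Benjamini-Hochberg limit 0.05. The dose fit was checked on data simulated with linear dose effects and a common spread. That check has the same assumptions as the fit, so it cannot test how a lone control or UPM library varies. SE is the log2 estimate's size divided by the square root of F.

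Alternatives were DESeq2 1.42.0 size factors or its Wald test, total counts, a 2-fold limit, minimums of 1 or 30 for the mean CPM, thinned libraries, no filter, no dose term, dose as rank, leaving out libraries, and leaving out small nucleolar, mitochondrial ribosomal and histone RNAs. Reads carry no molecular identifiers, so intervals cover counting error only. Promoter and gene tables were of GRCm38, an earlier build, and served for names, neighbours and promoter letters only.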

Additional observations from a re-analysis of the deposited data

How the results depend on the processing

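No paired analysis was possible because each group had 1 library. Of 37 calls of members between 2 libraries, 35 or more held with DESeq2 size factors, total counts, a mean CPM minimum of 1, thinning, or without small nucleolar, mitochondrial ribosomal and histone RNAs, and none reversed under any alternative run. Total counts ended Irgm1 at TZ 2.5 against UPM and Rtp4 at TZ 2.5 against the control. A fold of 2 left 0 members called in each of the 7 comparisons. It also left few of all genes, 0.169% in UPM against the control and 0.048% at TZ 1.25 against UPM. A mean CPM minimum of 30 left 2 in UPM against the control, 0, 2 and 1 at TZ 1.25, TZ 2.5 and TZ 5 against UPM, and 1 and 3 at TZ 1.25 and TZ 5 against the control, since fewer genes were then measured. Of all genes 0.86%, 0.411%, 1.99%, 4.07%, 0.523% and 3.26% were then called in these pairs, so the 1 of 25 members at TZ 5 against UPM is near all genes.

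In the fits, the UPM term called 2 members with no filter and 0 with no dose term. The dose term called 0 with the DESeq2 Wald test, and 6 with dose as rank (Rtp4 and Xaf1 besides the 4), against 7.4% of all genes. The TZ presence term called 1 with no filter. Apart from dose as rank, these counts have no share of all genes beside them and show only how far calls depend on the setting. When a library was left out, the members' median log2 estimate ran from −0.30 to 0.0008 in the UPM term. It ran from −0.08 to 0.03 per µg/mL in the dose term and from −0.20 to −0.14 in the TZ presence term. Over all genes these medians were 0.004 to 0.010, −0.001 to 0.002 and 0.005 to 0.014. The cause was not tested. Depth limits the 7 of 48 members with a mean under 10 CPM, which were not measured in the comparisons between 2 libraries except Ifit2 at TZ 5.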

Other observations

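A further 65 interferon-induced genes outside the 48 were looked up, of which 34 to 36 were measured in a pair. Their median log2 fold was 0.02 in UPM against the control and −0.03, 0.03 and 0.05 at TZ 1.25, TZ 2.5 and TZ 5 against UPM. In this list Parp11 was called higher at TZ 1.25, with 18.6 CPM in TZ 1.25 and 11.5 CPM in UPM (1.61-fold, 1.22 to 2.14). Gbp9 was called higher at TZ 5, with 23.1 CPM in TZ 5 and 14.2 CPM in UPM (1.62-fold, 1.26 to 2.09), and Ube2l6, the conjugating enzyme of Isg15, lower, with 8.70 CPM in TZ 5 and 13.6 CPM in UPM (0.640-fold, 0.458 to 0.888). Ube2l6 was under 10 CPM in TZ 5, so this pair was measured only through the level of UPM. Psme2, a proteasome activator subunit of antigen processing, was at 39.5 CPM in UPM, 39.4, 50.7 and 58.0 CPM in the rising doses and 37.4 CPM in the control. It rose by 0.12 on the log2 scale per µg/mL (SE 0.03, edgeR quasi-likelihood test, adjusted p = 0.0227). Ifi30, a lysosomal thiol reductase of antigen processing, was at 121 CPM in UPM, 120.3, 137 and 157 CPM in the rising doses and 109.7 CPM in the control, and rose by 0.08 (SE 0.02, edgeR quasi-likelihood test, adjusted p = 0.0363). The dose term called 2 of 49 tested genes of this list higher and 0 lower, 4.08% against 5.44% of all genes. The calls between libraries were 2.94% of the list at TZ 1.25 and 5.88% at TZ 5 against UPM, near the 2.22% and 6.57% of all genes. The genes with the most counts, Ly6e, Slfn5 and Mndal, were not called.

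Some members lie next to each other in the genome, and their values were compared for that reason. Cmpk2, a nucleotide kinase beside Rsad2 on chromosome 12, was at 23.3 CPM in UPM, 18.7, 16.5 and 20.7 CPM in the rising TZ doses and 18.5 CPM in the control, so UPM was its highest library and the lowest of Rsad2. Parp14, Dtx3l and Parp9 lie in a row on chromosome 16. Parp14 was at 73.8 CPM in UPM, 61.7, 67.1 and 76.6 CPM in the rising doses and 72.0 CPM in the control. Parp9 was at 51.4 CPM in UPM, 46.1, 43.7 and 40.5 CPM in the rising doses and 50.4 CPM in the control, and overlaps Dtx3l on the opposite strand. None of these 4 genes was called in a comparison.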
